A study of Homo sapiens with 12 samples.

Results

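AU-rich element binding proteins decide how long many short-lived messenger RNAs (mRNAs) last and whether they are translated. A set of 10 genes, for such proteins and for factors that act with them, was followed. They were chosen by name as proteins that destabilise, stabilise or silence cytokine mRNAs: ZFP36, ZFP36L1, ZFP36L2, ELAVL1, HNRNPD, KHSRP, TIA1, TIAL1, AGO2 and CNOT1. AGO2 and CNOT1 are in the set as such factors. All 10 were found among the 60605 genes of the count table, and all 10 passed the filter on low counts. RNA came from the human cell line SBC5, derived from a small cell lung cancer and labelled WT, in 4 groups of 3 libraries. The combination group received 1 µM olaparib and, 2 hours later, 4 Gy of gamma radiation. The radiation group received DMSO, the solvent of olaparib, and 4 Gy; the olaparib group received 1 µM olaparib and no radiation; the vehicle group received DMSO and no radiation. Olaparib blocks PARP1 and PARP2, enzymes that signal DNA breaks. Cells of all groups were collected after 3 days and total RNA was sequenced with a stranded kit. The series title concerns chemokine translation, which RNA counts do not measure.

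An AU-rich element is a stretch of A and U bases in the 3′ untranslated region (3′ UTR) of an mRNA, common in the mRNAs of cytokines, chemokines and early response transcription factors. ZFP36 and its relatives bind such elements and recruit the CCR4-NOT complex, which shortens the poly(A) tail and so starts decay. HNRNPD (AUF1) and KHSRP mostly promote decay as well, ELAVL1 (HuR) mostly protects the mRNA, and TIA1 and TIAL1 hold it back from translation.

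The core of the element is shown first because the ZFP36 proteins recognise it and because mRNAs of the family carry it themselves. In GENCODE 29 (GRCh38, sense strand, longest annotated 3′ UTR per protein-coding gene, written in DNA letters), the nonamer TTATTTATT occurred in 8.21% of 19133 genes, and the shorter pentamer ATTTA, which the nonamer contains, in 67.6%. Each line gives the first nonamer of a 3′ UTR in capitals with 10 bases on either side.
ZFP36 (chromosome 19, from base 507 of the 3′ UTR): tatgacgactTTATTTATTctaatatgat
ZFP36L1 (chromosome 14, from base 2393): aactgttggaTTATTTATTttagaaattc
ZFP36L2 (chromosome 2, from base 853): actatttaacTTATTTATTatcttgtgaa
ELAVL1 (chromosome 19, from base 1637): atttatgtatTTATTTATTgaagtgtgaa
TNF (chromosome 6, from base 463): gcacttgtgaTTATTTATTatttatttat
XIAP (chromosome X, from base 1845): caaatttattTTATTTATTtaattttctt
TNF, the cytokine in which the element is best known, held 5 nonamers, and its window runs on into further repeats of the pentamer. XIAP, a caspase inhibitor, is shown because its mRNA carries the nonamer and fell in the combination.

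Of the 10 genes, 5 held the nonamer in the 3′ UTR: ZFP36, ZFP36L1, ZFP36L2 and ELAVL1 once each, and AGO2 2 times. The 3′ UTRs of HNRNPD, KHSRP, TIA1, TIAL1 and CNOT1 held none, although TIA1 had 13 pentamers over 3275 bases and TIAL1 7 over 3863. KHSRP had no pentamer in 764 bases. A match is a description of letters, not a bound site, and longer 3′ UTRs hold more of them: the median was 3054 bases for tested genes with the nonamer and 1324 bases over all 15986 tested genes with a 3′ UTR.

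Libraries held 14.3 to 38.8 counts each in units of 1e+06, and 30967 genes were tested. A set of 3 libraries, radiation 3, olaparib 2 and olaparib 3, stood apart: the summed CPM (counts per 1e+06) over 404 olfactory receptor genes, which are transcribed mainly in the olfactory epithelium, were 920.2, 1896.7 and 2097.8 there and 355 to 501 in the other 9. Comparisons used those 9 libraries (3 combination, 2 radiation, 1 olaparib and 3 vehicle), so the single olaparib library is assumed to vary like the other groups. Among them the olfactory receptor sum was 501.4, 461.3 and 474.5 CPM in the combination, above 432.6, 410.8 and 354.7 CPM in vehicle. It was 356.5 and 486.5 CPM in radiation and 384.4 CPM in olaparib. Background and treatment therefore cannot be fully told apart in the combination against vehicle. Markers of other cell types were low in the 9 libraries: leukocyte markers summed to 1.27 to 4.04 CPM, with 3 of 5 at a median of 0, and epithelial markers to 0.467 to 2.33 CPM, with 3 of 4 at 0. Endothelial markers summed to 1.11 to 3.07 CPM and fibroblast markers to 15.1 to 21.1 CPM. In the libraries set apart the leukocyte, epithelial, endothelial and fibroblast sums were 10.1 to 22.9, 8.32 to 14.4, 9.72 to 32.1 and 27.8 to 68.6 CPM. Of 9 small cell lung cancer markers, YAP1 (90.3 to 116 CPM) and SYP (17.7 to 25.6 CPM) had a median of at least 1 CPM, while INSM1 had a median of 0. CPM below are scaled by TMM, edgeR's correction for library composition, and are not divided by gene length, so levels are compared between libraries and not between genes.

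Both irradiated groups had less mRNA of ZFP36L1, HNRNPD and KHSRP than vehicle. ZFP36, ZFP36L2 and CNOT1, whose proteins also serve decay, gave no call. The radiation calls of HNRNPD and KHSRP depended on single libraries, as given below. HNRNPD was as low in the olaparib library as in the irradiated ones. In the combination, 5 of the 10 genes fell against vehicle and none rose: ZFP36L1, HNRNPD, KHSRP, TIA1 and TIAL1. Over all tested genes 3.26% were called lower and 1.53% higher at an adjusted p under 0.05; among the 8351 genes with at least 10 CPM on average, the shares were 11.2% and 4.36%. After radiation alone 3 of the 10 fell, ZFP36L1, HNRNPD and KHSRP, where 0.678% of all tested genes and 2.13% of those with at least 10 CPM were called lower, and 0.42% of all tested genes higher. After olaparib alone HNRNPD fell, 1 of 10, where 0.0581% of genes were called lower. These 3 comparisons share the vehicle libraries. The 10 genes and the lists below were chosen with earlier results of these data known, so counts set beside these shares are descriptions. Tests are edgeR's quasi-likelihood F-tests with Benjamini-Hochberg adjustment over all genes tested. Because the RNA is from bulk cultures, fewer cells with a transcript and less of it per cell cannot be told apart. Separate cultures are not stated for the libraries of a group, so p-values measure the spread between libraries.

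**Figure D1:**
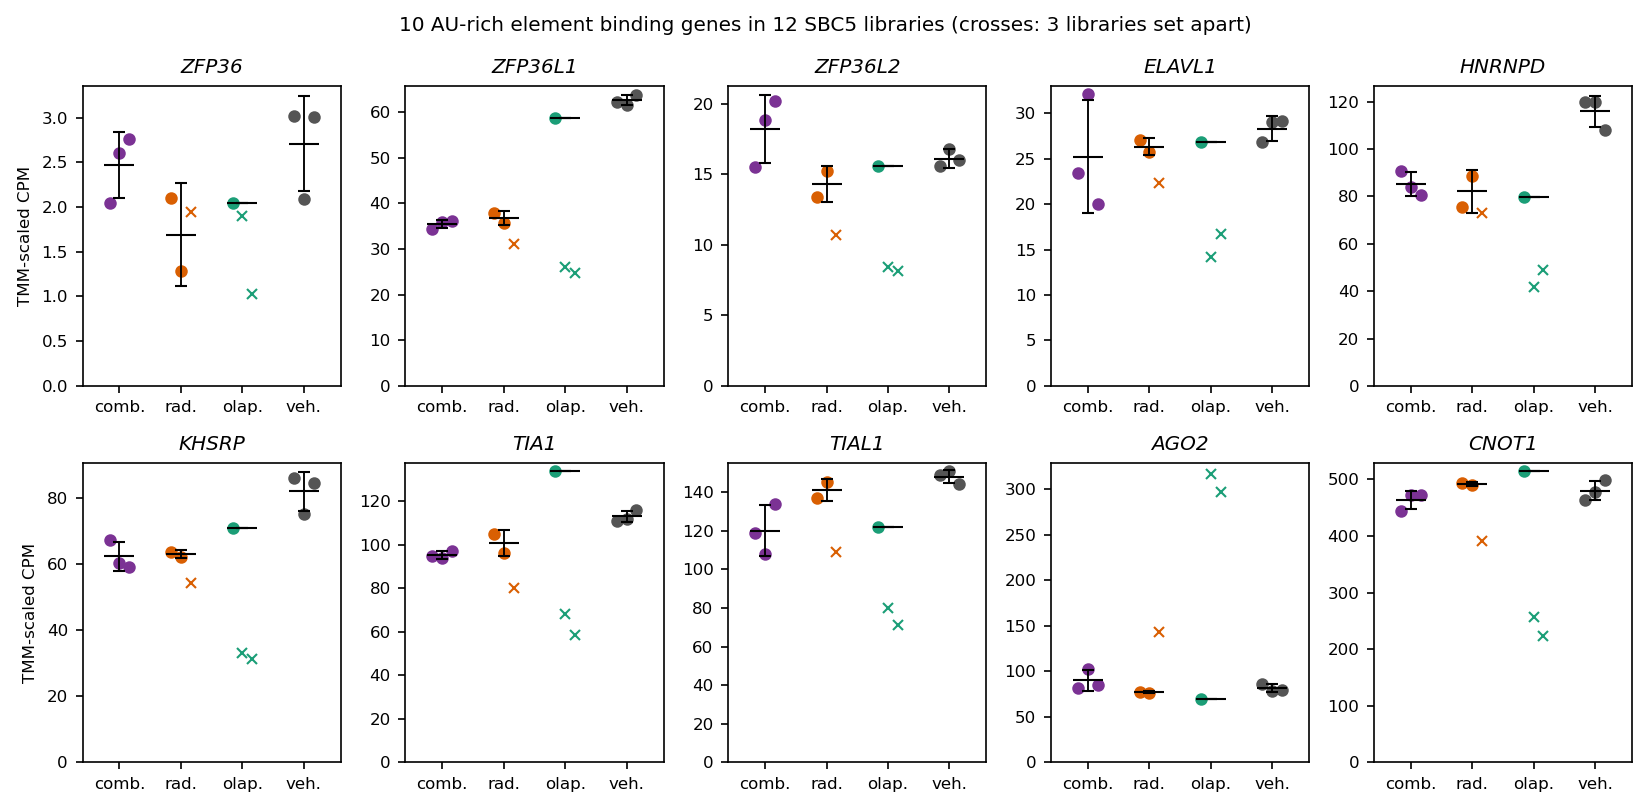
TMM-scaled CPM (y axis, from 0) of each gene in each library, by group: combination, radiation, olaparib, vehicle. Dots are the 9 libraries compared, crosses the 3 set apart, and bars the mean and SD over the dots (olaparib has 1 dot and no SD). Among the dots, ZFP36L1 sits between 34.4 and 37.8 CPM in the 5 irradiated libraries and between 58.8 and 63.8 CPM in the 4 unirradiated ones.

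ZFP36L1, which recruits the deadenylase to AU-rich mRNAs, had the largest changes of the 10 genes that passed the test. It had 34.4, 35.9 and 36.2 CPM in the combination libraries, 37.8 and 35.7 CPM in the radiation libraries, 58.8 CPM in the olaparib library, and 62.3, 61.6 and 63.8 CPM in the vehicle libraries. Among these 9 libraries the irradiated ones did not overlap the unirradiated ones. In the libraries set apart it had 31.2 CPM in radiation 3, 26.1 CPM in olaparib 2 and 24.8 CPM in olaparib 3. These 2 unirradiated libraries were thus below the irradiated ones, and the olaparib change given here uses only olaparib 1. The log2 change against vehicle was -0.82 for the combination (SE 0.0961, adjusted p = 9.61e-10) and -0.77 for radiation (SE 0.108, adjusted p = 1.10e-06). For olaparib it was -0.09 (SE 0.133, adjusted p = 1), and the combination differed from radiation by -0.05 (SE 0.108, adjusted p = 0.946). The interaction, which is the effect of olaparib in irradiated cells minus that in unirradiated cells, was 0.04 on the log2 scale (SE 0.171, adjusted p = 1).

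The other members of the family gave no call. ZFP36 (tristetraprolin), the best known of them in cytokine mRNA decay, rested on 26 to 94 counts per library. It had 2.05, 2.60 and 2.76 CPM in the combination libraries, 2.10 and 1.28 CPM in the radiation libraries, 2.05 CPM in the olaparib library, and 3.02, 2.09 and 3.01 CPM in the vehicle libraries. The combination overlapped vehicle and radiation, and the standard error of 0.382 on a log2 change of -0.13 (combination against vehicle, adjusted p = 0.955) shows how little these counts can resolve. ZFP36L2 had 15.5, 18.8 and 20.2 CPM in the combination libraries, 13.4 and 15.2 CPM in the radiation libraries, 15.6 CPM in the olaparib library, and 15.6, 16.8 and 16.0 CPM in the vehicle libraries. Its combination libraries spread over both sides of the vehicle range, and the log2 change was 0.17 (SE 0.151, adjusted p = 0.737). ZFP36L1 thus was the member of the family whose change passed the test, but the difference between its change and those of ZFP36 and ZFP36L2 was not tested.

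HNRNPD, whose protein AUF1 binds AU-rich elements and in most settings speeds decay, was below vehicle in every treated group. It had 90.7, 84.2 and 80.8 CPM in the combination libraries, 75.6 and 88.6 CPM in the radiation libraries, 79.9 CPM in the olaparib library, and 120, 120 and 108 CPM in the vehicle libraries. All 6 treated libraries lay below the lowest vehicle library. The log2 change against vehicle was -0.45 for the combination (SE 0.0814, adjusted p = 6.75e-05), -0.50 for radiation (SE 0.0917, adjusted p = 0.000271) and -0.54 for olaparib (SE 0.118, adjusted p = 0.0321). The combination differed from radiation by 0.05 (SE 0.0912, adjusted p = 0.929), and the interaction was 0.59 (SE 0.148, adjusted p = 0.0609), just short of the threshold. DESeq2, whose call is given below, adjusted the same interaction over 3031 genes and not 30967, so the tools are not compared like for like. The interaction also rests on the single olaparib library. The olaparib call was lost without vehicle 1 (adjusted p = 0.135) or vehicle 2 (adjusted p = 0.189), and the radiation call without radiation 1 (log2 change -0.39, adjusted p = 0.0903).

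KHSRP, a KH-domain protein that brings decay enzymes to AU-rich mRNAs and also helps process some microRNAs, was lower in irradiated cells. It had 67.4, 60.2 and 59.2 CPM in the combination libraries, 63.8 and 62.2 CPM in the radiation libraries, 70.8 CPM in the olaparib library, and 86.1, 75.2 and 84.6 CPM in the vehicle libraries. The treated libraries did not overlap the vehicle ones, and the olaparib library lay between the irradiated and the vehicle libraries. The log2 change was -0.40 for the combination (SE 0.0862, adjusted p = 0.00107), -0.38 for radiation (SE 0.0967, adjusted p = 0.0243) and -0.21 for olaparib (SE 0.122, adjusted p = 1). The radiation call was lost without radiation 1, radiation 2, vehicle 1 or vehicle 3, with adjusted p of 0.136, 0.185, 0.142 and 0.0858.

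ELAVL1, the stabilising protein of the set, gave no call in any comparison. It had 23.4, 32.1 and 20 CPM in the combination libraries, 27.0 and 25.7 CPM in the radiation libraries, 26.8 CPM in the olaparib library, and 26.8, 29 and 29.1 CPM in the vehicle libraries. Combination 2 was the highest of the 9 libraries and combination 3 the lowest, so the vehicle libraries fell inside the range of the combination. The log2 change of the combination against vehicle was -0.17 (SE 0.128, adjusted p = 0.654).

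TIA1 and TIAL1 are related proteins that silence translation of AU-rich mRNAs and gather in stress granules. TIA1 had 94.8, 93.7 and 97.3 CPM in the combination libraries, 105 and 96.4 CPM in the radiation libraries, 134 CPM in the olaparib library, and 111, 112 and 116 CPM in the vehicle libraries. Among the 9 libraries the olaparib one was the highest, and the irradiated ones were below all the unirradiated ones. Of those set apart, olaparib 2 and olaparib 3 had 68 and 58.6 CPM, and radiation 3 had 80.1 CPM. The call in the combination, at a log2 change of -0.25 (SE 0.0773, adjusted p = 0.0445), was close to the threshold and was lost without any single combination or vehicle library (adjusted p of 0.0802 to 0.149), with DESeq2's size factors (0.0638) and without the count filter (0.0707). TIAL1 had 119, 108 and 134 CPM in the combination libraries, 137 and 145 CPM in the radiation libraries, 122 CPM in the olaparib library, and 149, 151 and 144 CPM in the vehicle libraries. Its lower values were thus in both olaparib-treated groups: the log2 change was -0.30 in the combination (SE 0.0771, adjusted p = 0.00883), -0.27 in olaparib (SE 0.11, adjusted p = 1) and -0.07 in radiation (SE 0.0859, adjusted p = 0.884). The combination call was lost without combination 2 (adjusted p = 0.107) or vehicle 2 (adjusted p = 0.0597).

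AGO2, the Argonaute protein that carries microRNAs and cuts well-matched targets, and CNOT1, the scaffold of the CCR4-NOT deadenylase, gave no call in any comparison. AGO2 had 81.8, 103 and 85.5 CPM in the combination libraries, 77.8 and 76.2 CPM in the radiation libraries, 70.0 CPM in the olaparib library, and 86.5, 78.9 and 79.1 CPM in the vehicle libraries. Combination 2 was the highest, and the combination overlapped vehicle (log2 change 0.14, SE 0.084, adjusted p = 0.467). CNOT1 had 444, 472 and 472 CPM in the combination libraries, 494 and 489 CPM in the radiation libraries, 515 CPM in the olaparib library, and 464, 478 and 499 CPM in the vehicle libraries. It varied least of the 10 genes, with a coefficient of variation of 4.35% over the 9 libraries against 28.7% for ZFP36L1. Its log2 change in the combination was -0.05 (SE 0.0629, adjusted p = 0.832).

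**Figure D2:**
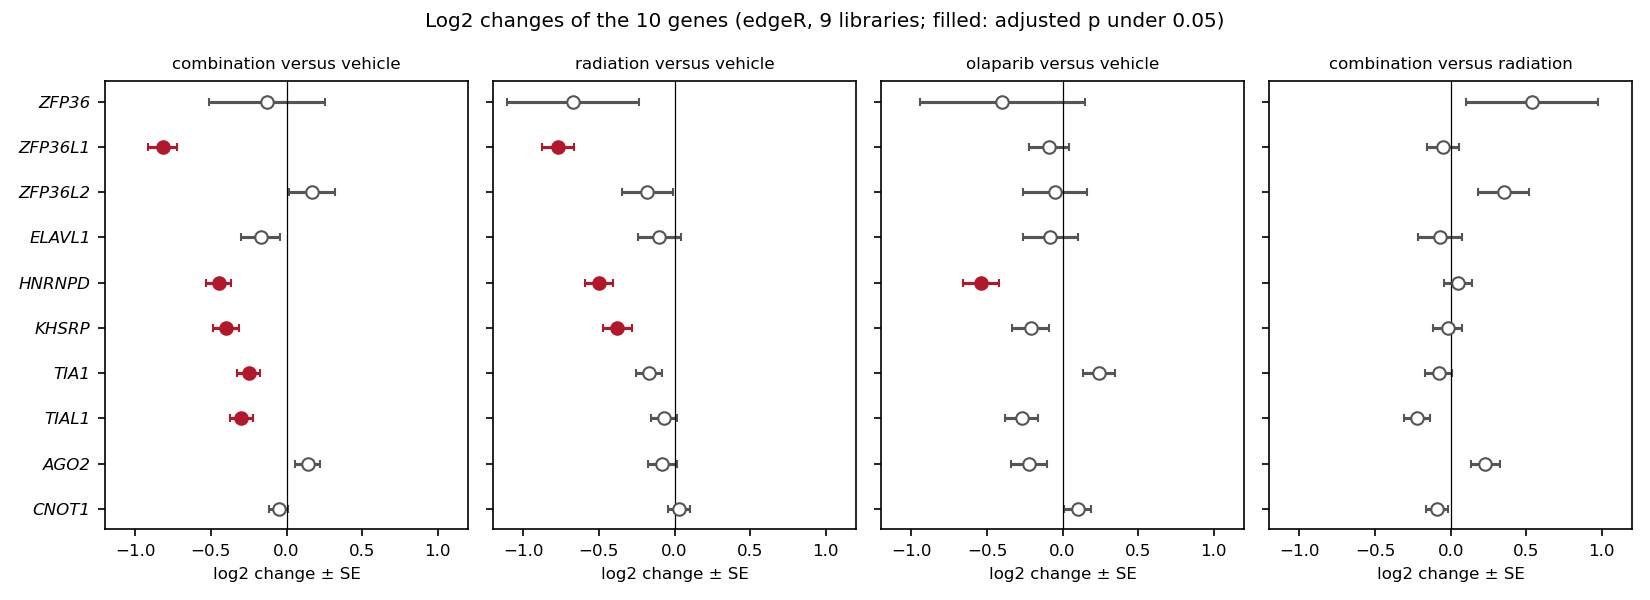
Log2 change and its standard error (x axis) of each gene in 4 comparisons, from edgeR on 9 libraries; filled points passed an adjusted p of 0.05. ZFP36L1, HNRNPD and KHSRP are filled in both comparisons of irradiated cells with vehicle, TIA1 and TIAL1 in the combination, HNRNPD in olaparib, and none between combination and radiation.

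The combination was also set against radiation alone, which asks what olaparib added in irradiated cells. DESeq2 gave an adjusted p to 7 of the 10 genes, here and in the interaction, and called 0 of the 7 here. edgeR called 0 of the 10, with 3 at an unadjusted p under 0.05, where 0.568% of all tested genes were called in either direction. The 3 were TIAL1 (log2 change -0.22, SE 0.0857, adjusted p = 0.294), AGO2 (0.23, SE 0.0945, adjusted p = 0.383) and ZFP36L2 (0.35, SE 0.171, adjusted p = 0.515). The interaction gave 0 calls by edgeR and 1 by DESeq2, that of HNRNPD, where 0.2% of all tested genes were called by edgeR; 3 of the 10 had an unadjusted p under 0.05. Beside HNRNPD these were AGO2 (0.44, SE 0.153, adjusted p = 0.363) and TIA1 (-0.32, SE 0.137, adjusted p = 0.594).

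In the combination, 5 of the 10 genes lay below vehicle with no overlap between the libraries, the same 5 that were called, where 10.4% of all tested genes did so. The median log2 change of the 10 was -0.21 in the combination, -0.17 in radiation and -0.15 in olaparib, beside 0.02, -0.03 and -0.02 over all tested genes. That share and these medians are not matched for expression. Among genes with at least 10 CPM, 11.2% were called lower and 4.36% higher in the combination. With libraries scaled by total count alone, the median over all genes moved to 0.22 in the combination and 0.08 in radiation. The median of the 10 was then -0.01 and -0.06, and 3 were called in the combination: ZFP36L1 (-0.62, adjusted p = 2.15e-06) and HNRNPD (-0.25, adjusted p = 0.0384) lower, and AGO2 (0.35, adjusted p = 0.0031) higher. The sign and the call of ZFP36L1 held under each scaling of the 9 libraries, while KHSRP, TIA1 and TIAL1 lost their call in the combination under total count scaling, with log2 changes of -0.20, -0.05 and -0.10; none of these changed sign.

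Over the 9 libraries, and as a description of points that share groups and scaling, ZFP36L1 varied with KHSRP (Pearson r = 0.889) and TIA1 (r = 0.843), and HNRNPD with KHSRP (r = 0.817); the lowest r was between TIA1 and AGO2 (-0.629). Among 8341 genes with a symbol and at least 10 CPM, those most like ZFP36L1 were MT-CO2 (r = 0.99), MT-CO3 (r = 0.989) and DBP (r = 0.989). MT-CO2 and MT-CO3 are mitochondrially encoded subunits of cytochrome c oxidase, and DBP is a circadian transcription factor. DBP averaged 19.5 CPM in the combination, 19 in radiation, 30.2 in the olaparib library and 31.8 in vehicle, the same division by radiation as ZFP36L1. NLGN2 (r = 0.931), GTF3C4 (r = 0.909) and AP3M1 (r = 0.894) were most like ZFP36, and PRR14 (r = 0.921), SLC12A2-DT (r = 0.92) and ANKRD46 (r = 0.919) were most like ZFP36L2.

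Of 21 tested genes for other AU-rich element binding proteins (22 listed; ELAVL4 was below the count filter), 7 fell in the combination against vehicle and none rose, where 3.26% of all tested genes and 11.2% of those with at least 10 CPM were called lower; among the 7 were PCBP1, HNRNPA1, YBX1, FUBP1, NCL and G3BP1. PCBP1, which also binds C-rich RNA, averaged 70.3 ± 0.795 CPM in the combination (n = 3), 88.6 ± 6.24 in radiation (n = 2), 89.5 in the olaparib library and 119 ± 6.62 in vehicle (SD, n = 3). Its log2 change was -0.76 in the combination (SE 0.0803, adjusted p = 2.81e-11) and -0.43 in radiation (SE 0.0896, adjusted p = 0.00237), where it was the only call of the list; without radiation 2 the radiation call was lost (-0.34, adjusted p = 0.13). HNRNPA1, a splicing and mRNA-binding protein, fell in the combination (-0.52, SE 0.0619, adjusted p = 1.06e-09) and also in the combination against radiation (-0.40, SE 0.0685, adjusted p = 0.000206). It has many processed pseudogenes, so its estimated counts may share reads with them. YBX1 changed by -0.33 (SE 0.0684, adjusted p = 0.00088) and FUBP1 by -0.29 (SE 0.0702, adjusted p = 0.00468). The list's median was -0.15, and with total count scaling it turned to 0.05 and the calls of FUBP1, YBX1, NCL and G3BP1 were lost. The call of G3BP1 (-0.22, adjusted p = 0.0479) was also lost without any single combination or vehicle library, that of FUBP1 without combination 2 or vehicle 2, and that of NCL without vehicle 1, with adjusted p up to 0.176, 0.0539 and 0.0744. Olaparib alone gave 0 calls in this list by edgeR and by DESeq2, with 2 genes at an unadjusted p under 0.05.

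The decay machinery that these proteins recruit was followed in further lists. Of 20 genes of the CCR4-NOT complex and other deadenylation factors, edgeR called 0 in the combination against vehicle, with 6 at an unadjusted p under 0.05 and 1 call by DESeq2; the median log2 change was 0.02. The smallest p belonged to PAN2, a deadenylase subunit (-0.51, SE 0.164, adjusted p = 0.0884), and BTG2, an antiproliferative factor that binds the complex (0.83, SE 0.3, adjusted p = 0.107). CNOT3, a CCR4-NOT subunit, fell in radiation (-0.49, SE 0.122, adjusted p = 0.0195), a call lost without radiation 1, radiation 2, vehicle 1 or vehicle 3 (adjusted p up to 0.26) and under the replicate block (0.107). PABPC1, the poly(A)-binding protein, was lower in the olaparib library at 1180 CPM, against 1608 ± 28.5 CPM in vehicle (SD, n = 3; log2 change -0.45, SE 0.0799, adjusted p = 0.00177), and had an interaction of 0.62 (SE 0.101, adjusted p = 0.000231).

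Of 11 decapping and 5′ decay genes, DDX6, a helicase that activates decapping, fell in the combination (-0.34, SE 0.0666, adjusted p = 0.000176). Of 17 exosome and 3′ decay genes, EXOSC8 rose (0.46, SE 0.105, adjusted p = 0.00195), and HBS1L (-0.30, SE 0.0819, adjusted p = 0.0143) and EXOSC10 (-0.27, SE 0.0755, adjusted p = 0.0211) fell. These counts, 1 lower of 11 and 1 higher and 2 lower of 17, stand beside 11.2% lower and 4.36% higher among genes with at least 10 CPM. Leaving out 1 library ended the call of EXOSC10 for combination 2 or 3 or any vehicle library (adjusted p up to 0.0799), and that of HBS1L for combination 1, combination 2 or vehicle 2 (up to 0.079). EXOSC8 and EXOSC10 are exosome subunits, and HBS1L encodes a ribosome rescue factor and a cofactor of the exosome. Neither list had a call in radiation by edgeR or DESeq2, with 1 gene of each at an unadjusted p under 0.05. The lowest p there were those of DDX6 (-0.18, adjusted p = 0.369) and EXOSC8 (0.30, adjusted p = 0.3). Of 11 microRNA pathway genes, 0 were called in the combination or radiation by either tool, with 2 at an unadjusted p under 0.05 in each; AGO1, another Argonaute, had the smallest p in the combination (0.15, SE 0.0726, adjusted p = 0.31). Of 17 kinases, phosphatases and 14-3-3 genes that act on these proteins, the 14-3-3 genes YWHAB (-0.37, SE 0.0862, adjusted p = 0.00289) and YWHAZ (-0.26, SE 0.0622, adjusted p = 0.00435) fell in the combination. In radiation edgeR and DESeq2 called 0 of the 17, with 3 at an unadjusted p under 0.05, the smallest for the kinase PRKCA (-0.45, SE 0.132, adjusted p = 0.0709). Proteins of the 14-3-3 family bind phosphorylated ZFP36 proteins and keep them from decay complexes. With total count scaling the calls of DDX6, EXOSC10, HBS1L, YWHAB, YWHAZ and, in radiation, CNOT3 were lost, and 6 deadenylation and 4 microRNA pathway genes were called higher in the combination.

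**Figure D3:**
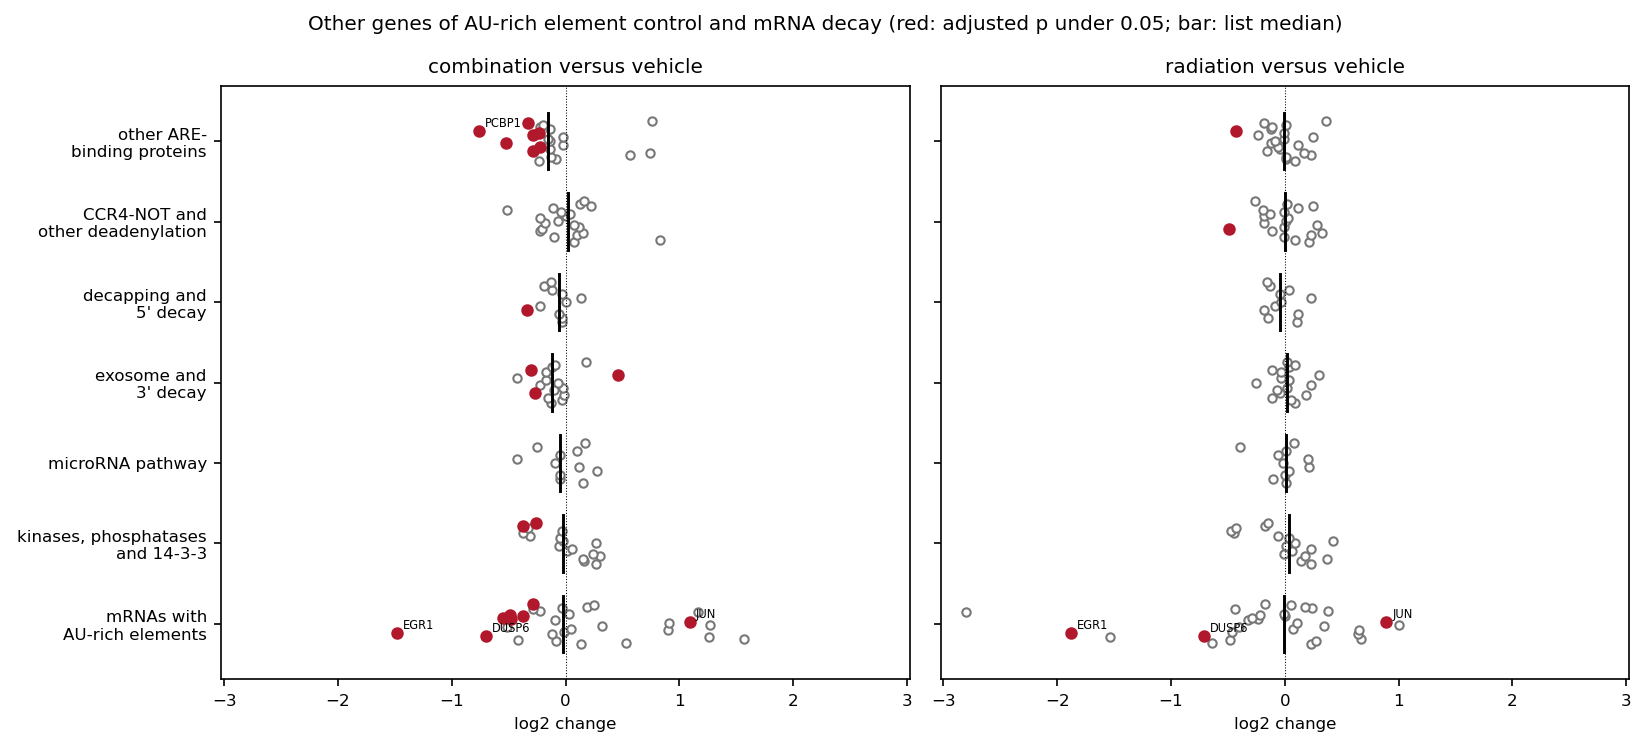
Log2 change (x axis) of each tested gene of 7 lists (rows), in the combination against vehicle and in radiation against vehicle; red points passed an adjusted p of 0.05 and bars mark list medians. In the combination 7 genes of the top row are red, all to the left of 0, and in both panels EGR1 and DUSP6 are red to the left and JUN to the right in the bottom row.

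Of 40 mRNAs known for AU-rich elements, 17 held the nonamer and 38 the pentamer, and 30 were expressed enough to test. The 10 below the count filter were TNF, IL6, CXCL8, CSF3, LIF, CXCL1, CXCL2, CXCL3, CCL2 and CCL3, cytokine and chemokine mRNAs for which the binding proteins are best known. CXCL2 and CCL3 had 0 counts in all 9 libraries, TNF 0 counts in 8 of 9 and at most 2, and CXCL8 0 in 7 of 9 and at most 2. Their response therefore could not be measured at this depth in these libraries. In the combination 1 of the 30 rose and 7 fell, with a list median of -0.02, where 1.53% of all tested genes were called higher and 3.26% lower. In radiation 1 rose and 2 fell, with a median of -0.01, where the shares were 0.42% and 0.678%. Among genes with at least 10 CPM the shares were 4.36% and 11.2% in the combination, and 1.33% and 2.13% in radiation. With total count scaling the combination had 4 higher and 3 lower.

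EGR1, an immediate early transcription factor, had 13.9, 21.2 and 13.2 CPM in the combination libraries, 12 and 12.5 CPM in the radiation libraries, 21.3 CPM in the olaparib library, and 45.4, 45.3 and 44.3 CPM in the vehicle libraries. Every treated library was below every vehicle library. The log2 change was -1.48 in the combination (SE 0.135, adjusted p = 1.06e-12), -1.88 in radiation (SE 0.157, adjusted p = 9.29e-14) and -1.08 in olaparib (SE 0.194, adjusted p = 0.00196), and the interaction was 1.47 (SE 0.247, adjusted p = 0.000483). DUSP6, a phosphatase that switches off ERK, had 38.3, 38.3 and 39.9 CPM in the combination libraries, 42.5 and 34.2 CPM in the radiation libraries, 63.7 CPM in the olaparib library, and 58.0, 67.7 and 62.9 CPM in the vehicle libraries. As for ZFP36L1, all irradiated libraries were below all unirradiated ones, with a log2 change of -0.70 in the combination (SE 0.0979, adjusted p = 1.89e-07) and -0.71 in radiation (SE 0.11, adjusted p = 9.97e-06).

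JUN, a subunit of the AP-1 transcription factor, moved the other way. JUN averaged 10.2 ± 1.33 CPM in the combination (n = 3), 8.84 ± 1.03 in radiation (n = 2), 4.81 in the olaparib library and 4.77 ± 0.97 in vehicle (SD, n = 3). The log2 change was 1.09 in the combination (SE 0.223, adjusted p = 0.000471) and 0.89 in radiation (SE 0.243, adjusted p = 0.0475), and the radiation call was lost whichever of the 9 libraries was left out (adjusted p of 0.0523 to 0.408) and with the replicate number as a block (0.0931). MYC, a growth-promoting transcription factor, fell in the combination (-0.49, SE 0.139, adjusted p = 0.02), as did KLF6 (-0.48, SE 0.0783, adjusted p = 8.36e-06), MCL1 (-0.37, SE 0.0679, adjusted p = 8.45e-05) and XIAP (-0.29, SE 0.0758, adjusted p = 0.00953). Of these calls, those of MYC, MCL1 and XIAP were lost with total count scaling. MYC also lost it without combination 3, vehicle 1 or vehicle 3 (adjusted p up to 0.128), and XIAP without combination 2 (0.0619). MCL1, an antiapoptotic BCL2 relative, averaged 250 ± 13.3 CPM in the combination (n = 3), 323 ± 23.9 in radiation (n = 2), 368 in the olaparib library and 323 ± 13.7 in vehicle (SD, n = 3). It was the only mRNA of this list called in the combination against radiation (-0.37, SE 0.0753, adjusted p = 0.00342), a call lost without radiation 1 (-0.29, adjusted p = 0.291). Its interaction was -0.56 (SE 0.12, adjusted p = 0.0129), also lost without combination 1, radiation 1 or vehicle 2 (adjusted p up to 0.17).

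Genes with the nonamer were also set beside those without it. In the combination against vehicle the median log2 change was 0.01 over 1450 tested genes with at least 1 nonamer and -0.01 over 14536 without; 4.41% and 2.29% were called higher, and 5.38% and 5.78% lower. In radiation the medians were 0.01 and -0.01, with 0.966% and 0.709% called higher and 1.66% and 0.977% lower. Of the 354 tested genes with at least 2 nonamers, 2.82% were called higher and 4.52% lower in the combination. In radiation 0.282% of the 354 were called higher and 1.13% lower. These shares are descriptions, since genes with the nonamer also had longer 3′ UTRs.

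In the libraries set apart, AGO2 parted from the other 9 genes. It had 143 CPM in radiation 3, 317 in olaparib 2 and 297 in olaparib 3, all above the highest of the other 9 libraries (103 CPM). The mean of the 3 was 3.08 times the mean of the 9, a ratio in the 99.6th percentile of 8351 genes with at least 10 CPM, of which 1.86% exceeded 2. The other 9 genes had ratios of 0.555 to 0.696, where the median over those genes was 0.681. ZFP36L2, KHSRP, ZFP36L1 and HNRNPD were low among them, at percentiles of 5.13, 6.65, 9.06 and 9.63, and ZFP36 alone of the 9 was above the median, at 55.4. AGO1 was lower in the libraries set apart, at 146 CPM in radiation 3, 96.7 in olaparib 2 and 102 in olaparib 3, against 154 to 191 CPM in the others. AGO2 counts held fractions in all 12 libraries, as did those of ZFP36L2, ELAVL1, TIAL1 and CNOT1, as kallisto can give where reads fit transcripts of more than 1 gene. With all 12 libraries the log2 change of AGO2 in olaparib against vehicle was 1.46 (SE 0.415, adjusted p = 0.131), against -0.22 (SE 0.12, adjusted p = 1) without them. The olfactory receptor sum and the marker sums given above moved with it, and their part in the AGO2 level was not tested.

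**Figure D4:**
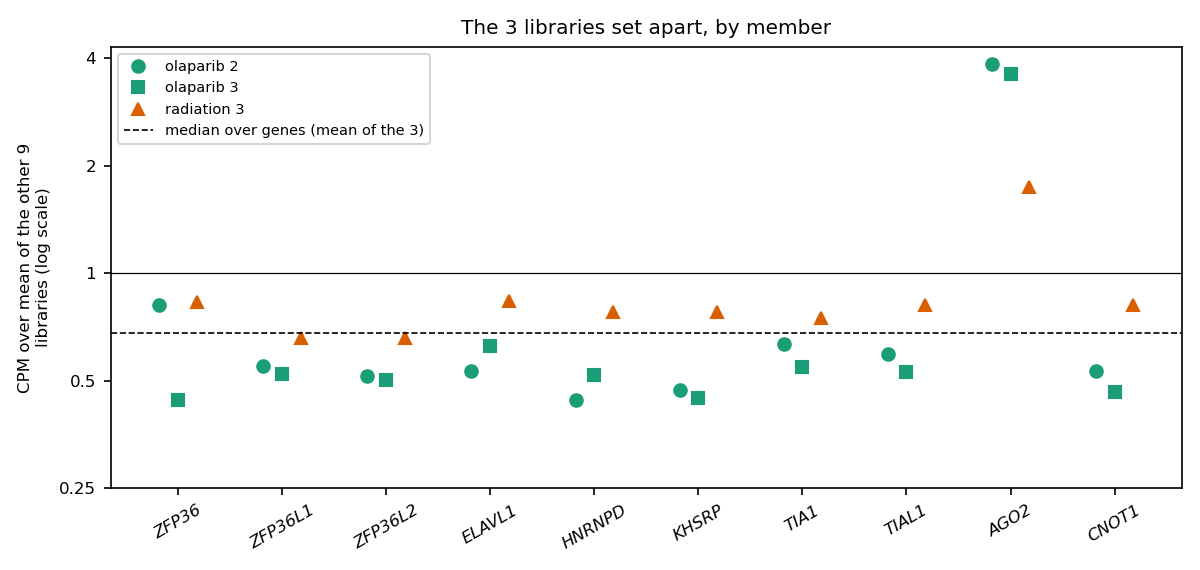
CPM in each library set apart over the mean of the other 9 libraries (y axis, log scale) for each gene; circles are olaparib 2, squares olaparib 3 and triangles radiation 3, and the dashed line is the median over genes with at least 10 CPM (0.681). AGO2 alone lies above 1 in all 3 libraries, and the other 9 genes lie below 1.

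With all 12 libraries in the fit, none of the 10 genes was called by edgeR in any comparison, although 7 had an unadjusted p under 0.05 in olaparib against vehicle, 4 in the interaction, 2 in radiation, 1 in the combination and 0 between combination and radiation. The whole table then held 1 call in the combination against vehicle. The size of the ZFP36L1 change barely moved, at -0.82 in the combination (SE 0.277, adjusted p = 1) and -0.84 in radiation (adjusted p = 0.934), while its standard error grew. When the fit of 12 libraries also held each library's olfactory receptor sum, ZFP36L1 was called in both (-0.69, adjusted p = 7.85e-05; -0.64, adjusted p = 0.000995) and HNRNPD in the combination (-0.37, adjusted p = 0.0448), while KHSRP was not (-0.28, adjusted p = 0.142). In that fit 23 of the 33 calls among genes of the other lists were lost and none changed sign. PCBP1, HNRNPA1, EXOSC8, JUN, EGR1, DUSP6 and KLF6 were still called in the combination against vehicle, EGR1 and DUSP6 in radiation, and PABPC1 in olaparib. Among those lost were PCBP1 in radiation (-0.36, adjusted p = 0.0549), HNRNPA1 in the combination against radiation (-0.32, adjusted p = 0.0631), DDX6 (-0.24, adjusted p = 0.091) and MCL1 (-0.23, adjusted p = 0.0945) in the combination, and EGR1 in olaparib (-1.24, adjusted p = 0.446). The PABPC1 interaction was 0.72 (adjusted p = 0.0547) and that of EGR1 1.57 (adjusted p = 0.358).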

How the data were processed

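Total RNA libraries of SBC5 cells were quantified by the authors with kallisto 0.46.1 and analysed with DESeq2, per the submitters' processing notes; neither the transcriptome nor the build is given in the sources used here. The deposited values are estimated counts per gene, of which 68.8% were whole to within 1e-06; total depth ran between 14.3 and 38.8 (units of 1e+06). Counts of 44 pseudoautosomal Y rows were added to their X copies and estimates were rounded. A name table matched 60463 of 60605 gene IDs. Libraries with an olfactory receptor sum over 1.5 times the median were set apart. The other 9 were fitted in R 4.3.3 with edgeR 4.0.16 (filterByExpr, TMM, 1 mean per group, robust quasi-likelihood F-test), with Benjamini-Hochberg adjustment over 30967 genes at a threshold of 0.05. The SE is the log2 change over the square root of F. Steps were tested on simulated data. Motifs were counted in the longest 3′ UTR of each gene in GENCODE 29.

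Named were all 10 genes, up to 4 called genes per list with the largest change (or 2 with the smallest p), and the 3 genes most like each ZFP36 gene. The genes and lists were chosen with earlier results of these data known. Remaining called list genes were named after their values were seen, and some are not reported here. The alternatives were all 12 libraries, these with the olfactory receptor sum as covariate, DESeq2 1.42.0, its size factors in edgeR, total count scaling, no count filter, a filter of 1 CPM in 3 libraries, the replicate number as a block, and each library left out. Giving them for list genes was added after seeing the data.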

Additional observations from a re-analysis of the deposited data

Results flagged for a closer look

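Signals stood out in 3 libraries that the comparisons do not use. The summed CPM over 404 olfactory receptor genes was 920.2 in radiation 3, 1896.7 in olaparib 2 and 2097.8 in olaparib 3, above every vehicle library. In the same libraries AGO2 stood at 143 CPM in radiation 3, 317 CPM in olaparib 2 and 297 CPM in olaparib 3, also above every vehicle library (78.9 to 86.5 CPM).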

How the results depend on the processing

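Depth limits ZFP36 (26 to 94 counts per library), and the single olaparib library limits both the olaparib comparison and the interaction, which have no value without it. With all 12 libraries, edgeR called 1 gene in the combination against vehicle and 0 genes in each other comparison, and 0 of the 10 genes in the combination, radiation or olaparib against vehicle; the MCL1 interaction turned to 0.29 (adjusted p = 0.678). With the 12 libraries and the olfactory receptor covariate, 829 genes (455 higher, 374 lower) were called in the combination, 193 (122 and 71) in radiation, 10 (0 and 10) in olaparib, 28 (6 and 22) in the combination against radiation and 0 in the interaction, and 2, 1 and 0 of the 10 genes in the combination, radiation and olaparib against vehicle. On 9 libraries the counts were 1485 (475 and 1010), 340 (130 and 210), 21, 176 (44 and 132) and 62. DESeq2 called 38 genes in olaparib, 439 (48 and 391) in the combination against radiation and 145 in the interaction, with 1 of the 10 genes in the interaction. Total count scaling called 2594 genes (2275 and 319) in the combination with 3 of the 10 genes, 685 (560 and 125) in radiation, 0 of the 10 genes in olaparib, 200 (142 and 58) in the combination against radiation, and 1 of the 10 genes in the interaction. Without a count filter 39 genes were called in olaparib, 278 (100 and 178) in the combination against radiation and 130 in the interaction, with 1 of the 10. The cause of these differences was not tested.

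Replicate numbers showed no sign of pairing: same-numbered libraries deviated from their group means with r of -0.163 to 0.077. For libraries with different numbers r was -0.171 to 0.223. With 2 radiation libraries and 1 olaparib library, these r cannot exclude pairing by number. With the number as a replicate block, 43 genes were called in olaparib and 103 in the interaction, with 1 of the 10 genes in the interaction; 4 of the 10 were called in the combination, where TIA1 had an adjusted p of 0.0672, and 3 in radiation.

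Leaving out 1 library at a time gave 1030 to 1716 genes and 3 to 5 of the 10 in the combination, 200 to 360 and 1 to 3 in radiation, 18 to 33 and 0 to 1 in olaparib, 38 to 447 and 0 in the combination against radiation, and 29 to 194 and 0 to 1 in the interaction. The combination had 3 of the 10 without combination 2 or vehicle 2, and radiation had 1 of 10 without radiation 1 and 200 genes without vehicle 2. Olaparib had 33 genes without vehicle 3. The combination against radiation had 38 genes without radiation 1, 447 without radiation 2, and 116 without combination 2 or olaparib 1. The interaction had 29 genes without radiation 1, 194 without radiation 2 and 126 without vehicle 3; HNRNPD was called in it without radiation 2 (0.69, adjusted p = 0.0151) or vehicle 3 (0.64, adjusted p = 0.0273).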
